A study of Mus musculus with 2 samples.

Results

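Trbv3, Trbv4, Trbv12-1, Trbv13-2, Trbv29 and Trbv31 are 6 of the 35 genes for variable segments of the T cell receptor beta chain among the 32285 genes counted in 2 single-cell libraries of mouse CD8 T cells. They were selected on measured values, namely a high share of cells in single T cell states of these same libraries, so the shares by library and state below are a description and carry no test. A cell was assigned a Trbv gene where that gene had at least 2 UMIs (unique molecular identifiers, which count captured RNA molecules) and at least 2/3 of all Trbv UMIs of the cell. This gave 958 cells with a member among 2236 assigned parous cells (42.8%, 95% interval 40.8 to 44.9) and 941 among 2148 assigned virgin cells (43.8%, 41.7 to 45.9).

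Both libraries came from C57BL/6 mice, from CD8 T cells of the 4th mammary fat pad that were sorted as live cells positive for CD45, TCR beta and CD8a and profiled with a 5-prime kit without culture or treatment. The parous library came from multiparous mice and the virgin library from virgin mice, each pooled from at least 5 animals, and the labels used here give no age and do not tie cells to a mouse. With 1 library per group no difference between parous and virgin has a replicate check. All intervals are exact 95% intervals (Clopper-Pearson for shares, Poisson for UMIs) and cover counting error only. They take no account of mice, cell preparation, UMIs that come from the same cell or cells that descend from 1 ancestor.

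The beta chain of a T cell receptor is assembled in the thymus by joining 1 V, 1 D and 1 J segment in front of a constant region, Trbc1 or Trbc2, and the alpha chain by joining 1 V and 1 J segment in front of Trac. The join forms CDR3, the complementarity-determining region that lies against the peptide held by the MHC molecule, while the V segment itself encodes the loops CDR1 and CDR2. A rearranged beta chain is passed to all daughters of a T cell, and a cell can carry transcripts of more than 1 rearranged alpha chain because both alpha alleles may rearrange. V segments have older names under which antibodies to them are sold: RefSeq's synonyms give V16 for Trbv3, V10 for Trbv4, V5.2 for Trbv12-1, V8.2 for Trbv13-2, V7 for Trbv29 and V14 for Trbv31.

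The V exons of the 6 segments are shown to identify what was assigned. The counts are per gene, so reads from the leader exon count too. They were read from GENCODE mouse release M21 on GRCm38, the assembly that mm10 names. In capitals is the last in-frame cysteine codon, where the junction begins, so that the letters after it are what the germline segment can add to the junction. Positions are chr6:41048529-41048828 for Trbv3, chr6:41059592-41059886 for Trbv4, chr6:41113775-41114067 for Trbv12-1, chr6:41121539-41121832 for Trbv13-2, chr6:41271587-41271881 for Trbv29 and chr6:41557691-41557981 for Trbv31. In each gene this is coding exon 2, and all lie on the plus strand except Trbv31, which lies on the minus strand beyond Trbc2.
Trbv3: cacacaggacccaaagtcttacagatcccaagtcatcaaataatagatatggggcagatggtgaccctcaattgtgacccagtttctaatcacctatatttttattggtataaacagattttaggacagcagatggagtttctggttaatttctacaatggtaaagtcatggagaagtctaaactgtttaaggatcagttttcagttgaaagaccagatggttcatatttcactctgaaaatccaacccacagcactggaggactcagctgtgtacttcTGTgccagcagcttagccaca
Trbv4: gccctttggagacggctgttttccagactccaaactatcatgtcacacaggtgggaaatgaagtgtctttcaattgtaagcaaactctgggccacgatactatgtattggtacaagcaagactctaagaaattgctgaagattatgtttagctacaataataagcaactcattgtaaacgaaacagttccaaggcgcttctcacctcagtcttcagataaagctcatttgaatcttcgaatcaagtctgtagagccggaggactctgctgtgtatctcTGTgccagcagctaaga
Trbv12-1: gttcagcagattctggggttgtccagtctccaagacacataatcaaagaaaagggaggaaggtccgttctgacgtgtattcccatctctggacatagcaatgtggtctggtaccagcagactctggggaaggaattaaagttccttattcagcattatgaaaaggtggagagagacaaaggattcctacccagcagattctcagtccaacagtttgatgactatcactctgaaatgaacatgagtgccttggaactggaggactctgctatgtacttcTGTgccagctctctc
Trbv13-2: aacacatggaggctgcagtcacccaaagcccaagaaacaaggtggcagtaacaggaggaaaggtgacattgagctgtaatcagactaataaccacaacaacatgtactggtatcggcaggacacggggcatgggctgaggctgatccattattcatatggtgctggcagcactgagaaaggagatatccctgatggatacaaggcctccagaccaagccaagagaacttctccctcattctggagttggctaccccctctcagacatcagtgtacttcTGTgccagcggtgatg
Trbv29: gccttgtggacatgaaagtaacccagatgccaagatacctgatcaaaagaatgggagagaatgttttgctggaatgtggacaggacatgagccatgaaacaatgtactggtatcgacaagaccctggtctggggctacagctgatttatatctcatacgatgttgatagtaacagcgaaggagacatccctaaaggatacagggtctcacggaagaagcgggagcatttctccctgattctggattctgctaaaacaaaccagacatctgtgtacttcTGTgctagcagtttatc
Trbv31: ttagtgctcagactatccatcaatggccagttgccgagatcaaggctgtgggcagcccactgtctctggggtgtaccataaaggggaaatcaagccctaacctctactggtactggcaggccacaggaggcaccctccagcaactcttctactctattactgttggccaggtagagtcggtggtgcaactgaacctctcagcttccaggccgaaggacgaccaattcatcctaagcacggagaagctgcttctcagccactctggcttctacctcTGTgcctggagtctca

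The last 300 bases are given for Trbv3, whose exon is longer. The exons were 291 to 302 bases long and matched each other at 47.8% to 64.4% of aligned bases over the 15 pairs. The closest other segment was far from Trbv3, Trbv4, Trbv29 and Trbv31, at 60.3%, 64.7%, 64.4% and 60.6% identity. Trbv12-1 matched Trbv12-2 at 89.1% (32 differing positions) and Trbv13-2 matched Trbv13-3 at 91.8% (24 differing positions), so short reads in the shared stretches of those 2 genes could be dropped or placed on the neighbour, and their counts are less certain. RefSeq lists Trbv29 as a pseudogene of a V segment while GENCODE gives it a coding sequence.

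The cell filter left 3019 of 4927 parous barcodes and 2511 of 2526 virgin barcodes, of which 2991 and 2502 lay in CD8 T cell clusters, with median depths of 4108 and 7002 UMIs per cell. A Trbv gene was assigned in 74.8% of these parous cells and 85.9% of the virgin cells, on a median of 7 and 11 Trbv UMIs per assigned cell. At least 2 UMIs of each of at least 2 Trbv genes were seen in 10.7% of parous and 22.1% of virgin cells. Clusters 2 and 5 were almost wholly parous (586 parous against 37 virgin cells, and 315 against 1), and cluster 8 was short of RNA, with a Trbv gene assigned in few of its parous cells (18.1%) and in 64.7% of the virgin ones. The libraries shared 18 barcode strings, and of the 6 assigned in both none had the same Trbv gene. Cells of cluster 11 (28 parous, 9 virgin), led by epithelial and macrophage genes, were left out. Among the 8 marker lists of other cell types, summed levels in the CD8 T cells were 6.55 to 101 CPM (UMIs scaled to a common library total) in the parous and 4.86 to 131 CPM in the virgin library, and of the defining markers Krt8 and Wap were at 0 in both.

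Over whole libraries the members fell into 3 patterns. Trbv3 was used more by parous cells, Trbv29 and Trbv31 were used more by virgin cells, and the intervals of Trbv4, Trbv12-1 and Trbv13-2 overlapped. Intervals apart were not particular to the members: among the other Trbv genes they were apart for Trbv1 and Trbv13-3, higher in parous cells, and Trbv26, higher in virgin cells. Trbv3 was assigned in 275 parous cells, 12.3% (11.0 to 13.7), against 180 virgin cells, 8.38% (7.24 to 9.63), a ratio of 1.47, and ranked first of the Trbv genes in the parous and at rank 3 in the virgin library. Trbv29 was assigned in 122 parous cells, 5.46% (4.55 to 6.48), against 201 virgin cells, 9.36% (8.16 to 10.7), which made it 1.72-fold lower in the parous library and the most common segment of the virgin one. Trbv31 was assigned in 123 parous cells, 5.50% (4.59 to 6.53), against 178 virgin cells, 8.29% (7.16 to 9.53), which was 1.51-fold lower in the parous library. Of the 19 Trbv genes with at least 20 assigned cells, 10.5% were at least 1.5-fold higher in the parous library, none of them a member, and 21.1% were at least 1.5-fold lower, Trbv29 and Trbv31 among them. After every cell was thinned to 1400 UMIs, the Trbv31 shares came to 5.47% in parous and 5.85% in virgin cells, so that difference was not seen there. Trbv3 (14.9% against 10.4%) and Trbv29 (5.05% against 9.90%) kept theirs. In the virgin cycling-like cluster 9, of median depth 17675 UMIs, thinning left 20 Trbv31 cells among 75 assigned, in place of 54 among 137. Without thinning, the Trbv31 shares in parous and virgin cells were 5.44% and 8.09% with 5 UMIs needed. At 90% of Trbv UMIs they were 6.31% and 9.64%. With cells of the same receptor genes counted once, among cells with an assigned Trav gene, the Trbv29 shares came to 6.10% (23 of 377) in parous and 7.17% (39 of 544) in virgin cells, so most of that difference was not seen in this count. Trbv3 was then 9.28% in parous and 6.43% in virgin cells, and Trbv31 3.98% in parous and 4.96% in virgin cells.

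The other 3 members differed less between the libraries. Trbv4 was assigned in 97 parous cells (4.34%, 3.53 to 5.27) and 103 virgin cells (4.80%, 3.93 to 5.79). Trbv12-1 was assigned in 140 parous cells (6.26%, 5.29 to 7.35) and 118 virgin cells (5.49%, 4.57 to 6.54). Trbv13-2 was assigned in 201 parous cells (8.99%, 7.84 to 10.3) and 161 virgin cells (7.50%, 6.42 to 8.69). In the order of parous shares the members ran Trbv3, Trbv13-2, Trbv12-1, Trbv31, Trbv29 and Trbv4, and only Trbv3 and Trbv13-2 had intervals clear of all those below them in that order. In the virgin library the order was Trbv29, Trbv3, Trbv31, Trbv13-2, Trbv12-1 and Trbv4, and neighbours in it had overlapping intervals.

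**Figure D1:**
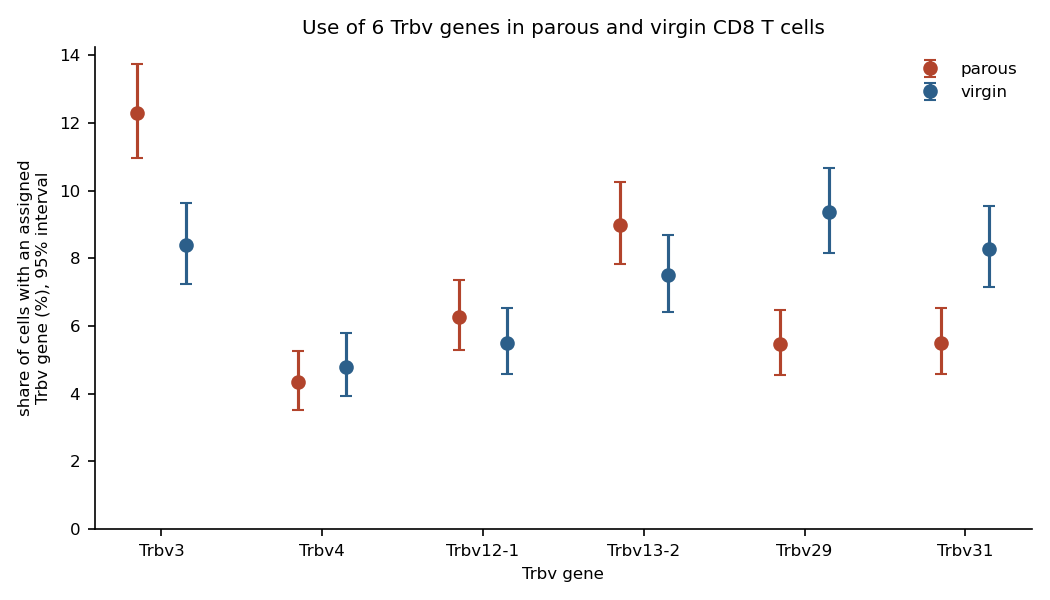
Share of assigned cells (%) using each of the 6 Trbv genes, with parous in red on the left and virgin in blue on the right of each pair. Points are 1 library each and bars are exact 95% intervals for counting error. Trbv3 stands higher in parous cells (12.3% against 8.38%), Trbv29 (5.46% against 9.36%) and Trbv31 (5.50% against 8.29%) lower.

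The rule's thresholds weighed unevenly on the members. Trbv4 had the fewest UMIs, with a median of 3 per assigned parous cell and 5 per assigned virgin cell, against 8 and 13 for Trbv3. Of the 97 parous Trbv4 cells, 40 held exactly 2 Trbv4 UMIs, just inside the threshold, and 35 more parous cells held a single Trbv4 UMI and no other Trbv UMI, just outside it. For Trbv3 these counts were 14 and 17 in the parous library. Trbv13-2 was the member most often seen beside another segment: of virgin cells with at least 2 Trbv13-2 UMIs 54.6% were assigned to it and 134 were not, 18 of those with a Trbv13-2 share between 1/2 and 2/3, against 75.6% assigned in the parous library. The second gene in these cells was most often Trbv12-2, the segment just before Trbv13-2 on the chromosome. At least 2 Trbv12-2 UMIs were found in 11.3% of parous cells with at least 2 Trbv13-2 UMIs, against 6.06% of the other parous cells, and in 21.4% against 6.52% of the virgin cells. No such partner stood out for Trbv4, Trbv12-1 or Trbv31, whose most frequent second segment was in at most 5.19% of their cells. Virgin cells with at least 2 Trbv3 UMIs had Trbv26 most often, in 7.76% against 4.47% of the other virgin cells. In such parous cells it was Trbv13-2, in 4.13% against 9.45%. With 5 UMIs needed for assignment, the leading-state shares given below were 2.10% for Trbv4, in place of 10.3%, and 10.1% for Trbv12-1, in place of 19.4%.

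Shares were then taken within 11 clusters of CD8 T cells, found without receptor genes and called states here. A Trbv gene at least 2-fold above its share in the rest of the same library was counted over library-state pairs with at least 20 assigned cells. That held in 12 of 126 pairs for the members (9.52%), against 34 of 273 pairs for the other Trbv genes and 11.5% over all 399 pairs, so peaks of this size were as frequent among segments that are not members. The number of such pairs was 1 for Trbv3, Trbv13-2 and Trbv29, 2 for Trbv12-1, 3 for Trbv4 and 4 for Trbv31. On this count the label of a single state fits 3 members, but for Trbv13-2 only narrowly. Its ratio in virgin Ly49 and Helios-like cells, 2.03, was just past the cut. It was 1.97 in parous circulating effector-like cells and 1.83 in the parous Gzmk or exhausted-like state, just short of it. Each member's state of highest ratio is called its leading state below.

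**Figure D2:**
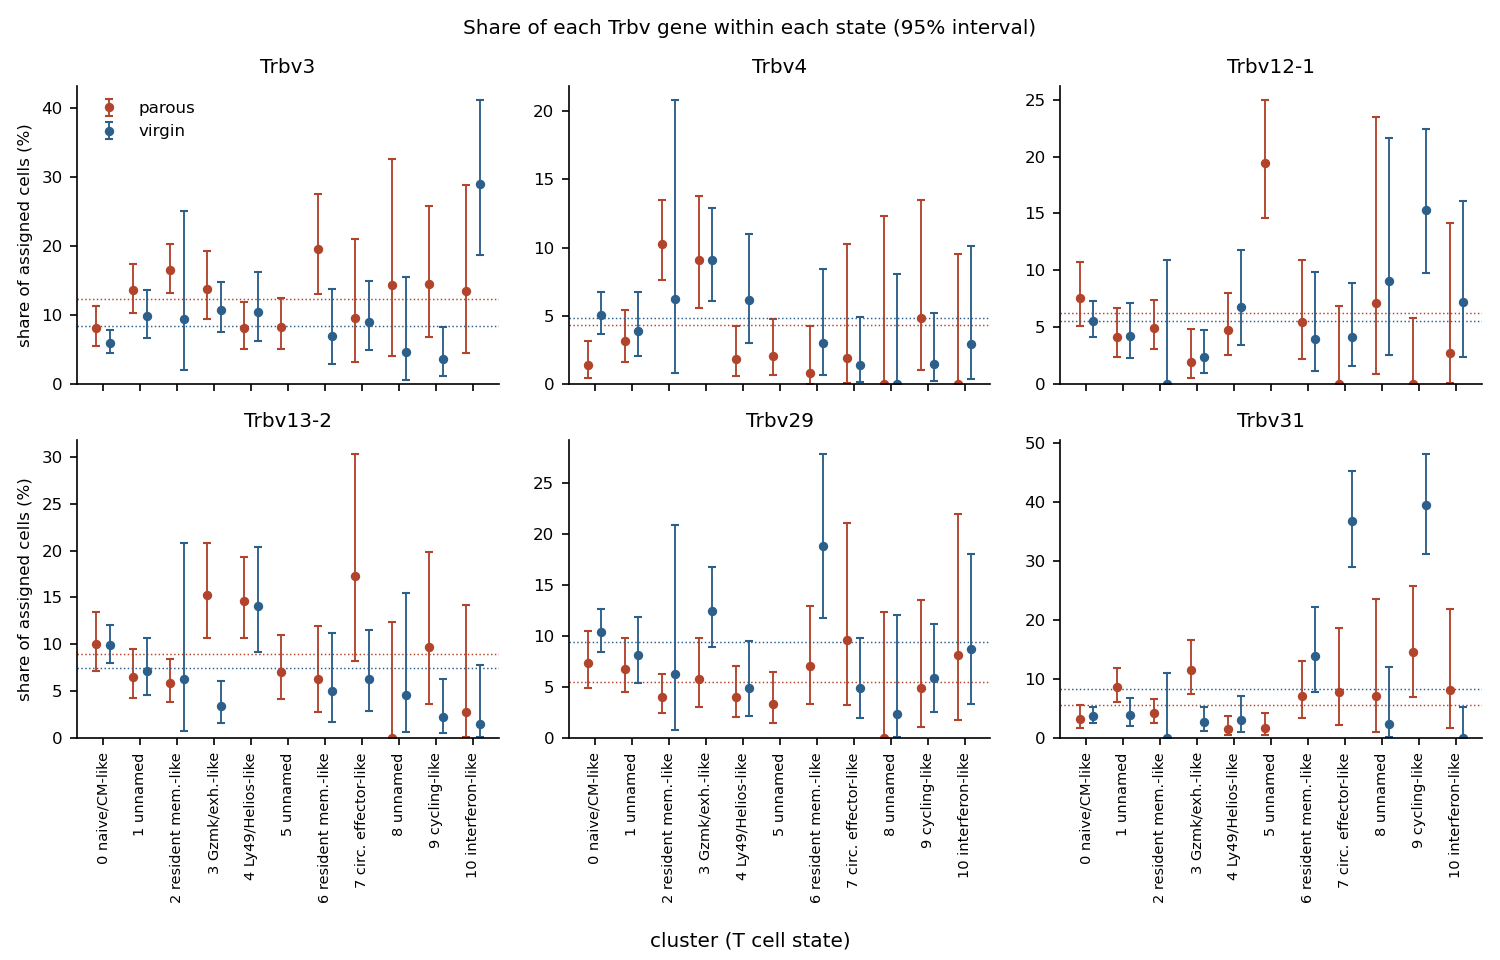
Share (%) of the assigned cells of each state that use each Trbv gene, with parous in red left of virgin in blue. Bars are exact 95% intervals, dotted lines the share in the whole library, and states with under 20 assigned cells are not drawn. Trbv31 in virgin cycling-like (39.4%) and circulating effector-like cells (36.8%) is the highest point.

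Trbv3 peaked in the virgin interferon-responding-like cells (cluster 10, with Ifit1, Ifit3 and Isg15 among its markers). It was assigned in 20 of 69 cells there, 29.0% (18.7 to 41.2), against 7.70% of the other virgin cells, a ratio of 3.77, and in 5 of 37 parous cells of the state, 13.5% (4.54 to 28.8). At the coarser resolution of 0.5 the state merged with others and the Trbv3 share of that cluster was 10.9%. In the parous library Trbv3 was spread more widely. In parous cells it made up 19.5% (25 of 128) of the resident memory-like cluster 6 and 16.5% (74 of 448) of the resident memory-like cluster 2, and 8.09% (30 of 371) of the naive or central memory-like cells, against 5.99% (51 of 852) of the virgin naive-like cells.

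Trbv4 peaked in the parous cells of cluster 2, a tissue-resident memory-like state with Itgae, Itga1, Cxcr6, Car2 and Cdh1 among its markers and Pdcd1 among its leading genes. It was assigned in 46 of 448 cells there, 10.3% (7.62 to 13.5), against 2.85% of the other parous cells, a ratio of 3.60, and in 2 of 32 virgin cells of the state. The state held 47.4% of all parous Trbv4 cells. In the Gzmk or exhausted-like state (cluster 3, with Pdcd1, Gzmk, Tigit, Lag3 and Tox) the Trbv4 share was 9.05% (19 of 210) in parous and 9.06% (27 of 298) in virgin cells. Among naive-like cells it was assigned in 5 of 371 parous cells, 1.35% (0.439 to 3.12), against 43 of 852 virgin cells, 5.05%. On a finer clustering (resolution 1.2) 43 parous Trbv4 cells fell into 1 cluster led by Adgrg1, Pdcd1 and Gzmk, where Trbv4 reached 18.5% of 233 cells. That cluster was left unnamed, and its 7 resident memory markers held Itgae, Cxcr6 and Cdh1 but not Itga1 or Car2.

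Trbv12-1 peaked in the parous cells of cluster 5, an unnamed state that was almost absent from the virgin library. Its cells carried 11 of the tissue-resident memory markers, but were led by Gzmc, Klrb1a, Klra5, Fcer1g and Tyrobp, genes of cytotoxic and natural killer type cells, while Cd8b1, which encodes the chain that pairs with Cd8a, had a UMI in 22.8% of them against over 90% in 8 of the other 10 states. Trbv12-1 was assigned in 47 of 242 such cells, 19.4% (14.6 to 25.0), against 4.66% of the other parous cells, a ratio of 4.16. The other peak was in virgin cycling-like cells (cluster 9, with Mki67 and Top2a), at 21 of 137 cells, 15.3% and a ratio of 3.18, where no parous cell of 62 was assigned the segment, a count that allows a share of up to 4.84% by 3 counts and 5.78% by the exact interval. On the finer clustering, 23 of the 47 Trbv12-1 cells lay in a cluster led by Pxdc1, Krt83, Ccr10 and Klra1, where Trbv12-1 was assigned in 46.0% of 50 parous cells, and the other 24 lay in a cluster where its share was 11.3% of 212 parous cells.

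Trbv13-2 had the lowest peak of the 6 by ratio, with shares from 0% to 17.3% over states. Its leading state was the virgin Ly49 and Helios-like cluster 4, with Ikzf2, Klra1 and Klra6, at 23 of 163 cells, 14.1% (9.16 to 20.4), against 6.95% of the other virgin cells, a ratio of 2.03. In parous cells of the state the share was 14.6% (40 of 274), and the intervals overlapped. Its highest share, 17.3% (9 of 52), was in parous circulating effector-like cells, at a ratio of 1.97, and its lowest ratio among virgin states with at least 20 assigned cells was 0.188, in interferon-responding-like cells. In the Gzmk or exhausted-like state it was 15.2% (32 of 210) in parous cells, against 3.36% (10 of 298) in virgin cells, with intervals apart in the plot of shares by state.

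Trbv29 led in the virgin resident memory-like cluster 6, with Zfp683, P2rx7 and Ccr8 among its markers. It was assigned in 19 of 101 cells, 18.8% (11.7 to 27.8), against 8.89% of the other virgin cells, a ratio of 2.12, and in 9 of 128 parous cells, 7.03% (3.27 to 12.9). Among naive-like cells Trbv29 was assigned in 7.28% (27 of 371; 4.85 to 10.4) of parous and 10.3% (88 of 852; 8.37 to 12.6) of virgin cells, with overlapping intervals. In circulating effector-like cells the parous share was the higher one, 9.62% (5 of 52; 3.20 to 21.0) against 4.86% (7 of 144; 1.98 to 9.76) in virgin cells, and these intervals overlapped too.

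Trbv31 had the steepest profile. In virgin cells it took 54 of 137 cycling-like cells, 39.4% (31.2 to 48.1), and 53 of 144 circulating effector-like cells (cluster 7, with Klrg1, S1pr5 and Cx3cr1), 36.8%, with ratios of 6.39 and 5.90 to the rest of the library. Parous shares were 14.5% (9 of 62) and 7.69% (4 of 52) in these states, and 11.4% (24 of 210) in the Gzmk or exhausted-like state. In naive-like cells it was 3.23% in parous and 3.64% in virgin cells.

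The alpha chain used by these cells played no part in the rule or in the clustering, and gives a separate view of how alike the receptors within a peak were. A Trav gene was assigned by the same thresholds in 36.7% of parous and 53.9% of virgin cells with an assigned Trbv gene. Over all 67 sets of at least 10 such cells with 1 Trbv gene, library and state, 1 Trav gene took at least 50% of the cells in 19.4%, with 8 of 33 sets for the members and 5 of 34 for other Trbv genes. The leading states of Trbv3, Trbv4, Trbv29 and Trbv31 were among the 8 and those of Trbv12-1 and Trbv13-2 were not. Junction sequences were not analysed here, so cells that share a Trbv and a Trav gene cannot be called a clone. Each leading Trav gene was chosen as the commonest in the very cells whose share is given. That choice favours their share over those it is set against, and the intervals do not allow for it.

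For Trbv3 in virgin interferon-responding-like cells the leading alpha segment was Trav8n-2, in 13 of 17 cells with an assigned Trav gene, 76.5% (50.1 to 93.2). It was in 12 of 89 Trbv3 cells of other virgin states (13.5%), in 1 of 17 cells of the state with another Trbv gene, and in 3 of 112 parous Trbv3 cells (2.68%). The commonest partner of parous Trbv3 cells was instead Trav3-3, in 36 of 112 (32.1%). Over all cells with both genes assigned Trav3-3 was the most frequent Trav gene, at 18.9% of parous and 6.56% of virgin cells.

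For Trbv4 in the parous resident memory-like cluster 2 the leading alpha segment was Trav3-3, in 23 of 27 cells, 85.2% (66.3 to 95.8). It was in 5 of 17 parous Trbv4 cells of other states, in 52 of 154 cells of the state with another Trbv gene (33.8%) and in 8 of 48 virgin Trbv4 cells (16.7%). All 28 parous cells with Trbv4 and Trav3-3 lay in 3 states: 23 in cluster 2, 3 among cycling-like cells and 2 in the Gzmk or exhausted-like state. Trav3-3 was common in cluster 2 as a whole, and Trbv1 cells of that state carried 1 Trav gene in 26 of 28 cells.

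For Trbv29 in the virgin resident memory-like cluster 6 the leading alpha segment was Trav12-3, in 12 of 13 cells, 92.3% (64.0 to 99.8). It was in 5 of 90 Trbv29 cells of other virgin states (5.56%), in 3 of 56 cells of the state with another Trbv gene and in 3 of 41 parous Trbv29 cells. The 17 virgin cells with this pair lay in cluster 6 (12), among cycling-like cells (3) and in cluster 1 (2).

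The exons of 3 alpha segments that recur in these peaks, Trav3-3, Trav12-3 and Trav13-1, are shown with the last in-frame cysteine codon in capitals, from the same annotation. They lie on the plus strand at chr14:53666216-53666506 (Trav3-3), chr14:53621946-53622245 (Trav12-3, its last 300 bases) and chr14:53545247-53545525 (Trav13-1). Each has a close copy among the alpha segments, at 93.5% identity to the nearest for Trav3-3, 96.7% for Trav12-3 and 96.1% for Trav13-1, and the nearest to Trav8n-2 is at 90.5%. Of the segments met below, Trav10d differs from Trav10 in 2 bases (99.3% identity) and Trav3-1 from Trav3-4 in 6 (97.9%), so a named Trav gene may stand for reads of its copy too.
Trav3-3: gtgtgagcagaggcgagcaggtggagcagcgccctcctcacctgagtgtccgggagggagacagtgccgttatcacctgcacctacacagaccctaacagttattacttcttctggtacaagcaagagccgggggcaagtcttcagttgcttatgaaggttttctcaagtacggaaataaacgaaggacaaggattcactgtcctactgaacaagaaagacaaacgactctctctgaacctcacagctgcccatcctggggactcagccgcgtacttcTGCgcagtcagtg
Trav12-3: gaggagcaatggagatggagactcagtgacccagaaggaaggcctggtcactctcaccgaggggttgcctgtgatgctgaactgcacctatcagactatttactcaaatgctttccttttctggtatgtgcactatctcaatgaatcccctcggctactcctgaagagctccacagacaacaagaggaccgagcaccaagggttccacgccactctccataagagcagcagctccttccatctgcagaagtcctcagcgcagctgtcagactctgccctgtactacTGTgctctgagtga
Trav13-1: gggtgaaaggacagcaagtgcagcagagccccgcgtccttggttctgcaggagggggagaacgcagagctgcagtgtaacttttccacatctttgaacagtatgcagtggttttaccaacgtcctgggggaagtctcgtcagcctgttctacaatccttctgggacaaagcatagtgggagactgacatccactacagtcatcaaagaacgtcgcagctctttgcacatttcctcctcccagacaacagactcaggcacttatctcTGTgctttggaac

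For Trbv12-1 in parous cluster 5 no Trav gene led by assignment: 11 genes were found in 19 cells, with Trav13-1 in 5 and Trav3-3 in 3. The assignment leaves out cells in which no alpha segment reaches 2/3 of the Trav UMIs, so the cells were also read by single UMIs. Trav13-1 had a UMI in 23 of the 47 Trbv12-1 cells of the state and Trav3-3 in 24, and 22 cells (46.8%, 32.1 to 61.9) held both. Both together were in 0 of the 93 Trbv12-1 cells of other parous states and in 0 of the 195 cells of cluster 5 with another Trbv gene, where Trav13-1 alone had a UMI in 4.62%. In the finer cluster led by Pxdc1, 21 of 23 Trbv12-1 cells held both segments, against 0 of 27 cells with another Trbv gene, and 11 of 29 cells with no assigned Trbv gene. Cd8b1 had a UMI in 2 of these 23 Trbv12-1 cells, against 18 of the 27 others, but all 23 came from cluster 5 and only 6 of the 27 did. Within cluster 5 as a whole it was in 17.0% (7.65 to 30.8) of Trbv12-1 cells, against 26.2% (20.1 to 32.9) of cells with another Trbv gene, and the intervals overlapped.

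Among virgin cycling-like cells Trbv12-1 came with 2 alpha segments, seen in separate cells. Trav12-1 was assigned in 9 of 17 cells and Trav3-3 in 7, and no virgin Trbv12-1 cell held a UMI of both, out of 16 with Trav12-1 and 20 with Trav3-3. A count of 0 of 16 has an exact interval up to 20.6%, which holds the 19.6% of Trbv12-1 cells without Trav12-1 that had Trav3-3, and in cells with another Trbv gene it was 0 of 47. Cells with Trav3-3 also held Trav10 in 11 of 20, against 3 of 98 Trbv12-1 cells without Trav3-3. The pair of Trbv12-1 and Trav12-1 was found in 12 virgin and 0 parous cells.

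The same reading for the other members gave further cases of 2 alpha segments in the same cells. Of 22 virgin Trbv29 cells with a Trav12-3 UMI, 14 also held Trav3-3 (63.6%, 40.7 to 82.8), against 8 of 179 Trbv29 cells without Trav12-3. In virgin Trbv31 cells 70 of 90 with Trav3-1 also held Trav10d (77.8%, 67.8 to 85.9), against 21 of 88 without Trav3-1, and the 70 lay in clusters 9 (38), 7 (26) and 6 (6). Of virgin cells with another Trbv gene, 10 of 43 with Trav3-1 also held Trav10d (23.3%, 11.8 to 38.6), against 0.934% of those without Trav3-1. Of these 10 cells, 4 lay in cluster 7 and 5 in cluster 9, the states where Trbv31 was most common. Whether such cells were doublets or held stray RNA of Trbv31 cells was not tested. In parous Trbv31 cells Trav5-4 came with Trav8-2 in 19 of 34 cells, against 5 of 89 without Trav5-4. Of the 123 parous Trbv31 cells 1 held a Trav3-1 UMI and 0 a Trav10d UMI. In Trbv3 cells with Trav8n-2 the commonest second segment was Trav15-1-dv6-1, in 4 of 32 (12.5%, 3.51 to 29.0), against 1 of 148 without Trav8n-2. In virgin Trbv13-2 cells with Trav12-2 it was Trav8d-1, in 4 of 12 (33.3%, 9.92 to 65.1), against 6 of 149 without Trav12-2. In parous Trbv4 cells with Trav3-3 it was in 1 of 37.

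A single UMI can come from free RNA, so its background was read in cluster 11. None of the leading alpha segments had a UMI in the 9 virgin cells of that cluster, at a median of 6198 UMIs, and 0 of 9 has an exact interval up to 33.6%, while Trav3-3 had one in 4 of the 28 parous cells (14.3%), at a median of 4153 UMIs. In that cluster 67.6% of cells had a Cd3e UMI, so T cell RNA was present there. The leading alpha segment of Trbv12-1 in parous cluster 5, Trav13-1, had none in the 28 cells, with an exact interval up to 12.3%. These few cells bound the background only loosely.

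**Figure D3:**
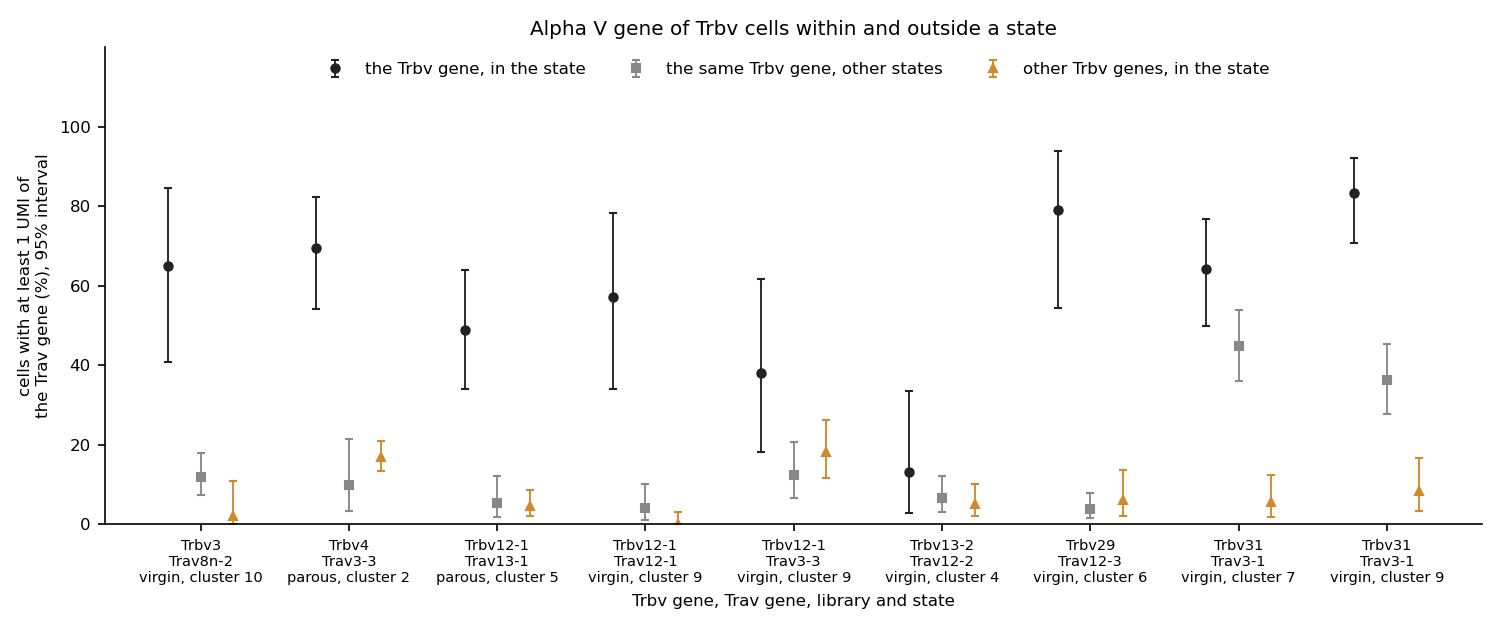
Share (%) of cells with at least 1 UMI of the Trav gene named under each position: cells of the Trbv gene in the named state (black circles), the same Trbv gene in all other states of that library (grey squares) and other Trbv genes in the state (orange triangles). Bars are exact 95% intervals. The black circles stand clear of both others in all positions except Trbv12-1 with Trav3-3, Trbv13-2 with Trav12-2 and Trbv31 with Trav3-1 in cluster 7, where 64.2% in the state stands against 44.8% of Trbv31 cells elsewhere with overlapping intervals. The Trav genes were chosen as among the commonest in the cells of the black circles, which favours those values. The intervals do not allow for that choice.

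Trbv13-2 had no leading Trav gene in its leading state. In virgin Ly49 and Helios-like cells its 13 cells with an assigned Trav gene used 12 different genes, the commonest (Trav12-2) in 2 cells, and in parous cells of the state 17 cells had a commonest gene in 2. In the parous Gzmk or exhausted-like state 1 Trav gene took 7 of 19 Trbv13-2 cells (36.8%).

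Naive-like cells, in which the highest ratio of a member to the rest of its library was 1.66 (Trbv13-2 in virgin cells), used many alpha segments. In virgin naive-like cells the largest Trav gene took 3 of 26 Trbv3 cells, 2 of 16 Trbv4 cells, 2 of 25 Trbv12-1 cells, 4 of 44 Trbv13-2 cells, 5 of 47 Trbv29 cells and 3 of 20 Trbv31 cells. Those 6 sets used 17, 14, 22, 27, 27 and 15 different Trav genes. Parous naive-like cells had at most 12 cells with a Trav gene per member, and for Trbv4 none.

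Cells with the same assigned receptor genes were also counted once, among cells with an assigned Trav gene. All 6 peaks were then lower than the shares of all assigned cells given above, by more than 1.5 times for 3. The share in the leading state came to 4.49% (4 of 89) for Trbv4, 4.88% (2 of 41) for Trbv29 and 10.0% (4 of 40) for Trbv31, which are those 3. It was 27.3% (6 of 22) for Trbv3, 16.2% (12 of 74) for Trbv12-1 and 13.2% (12 of 91) for Trbv13-2. Before cells were merged, the cells with an assigned Trav gene gave 17 of 34 for Trbv3, 27 of 181 for Trbv4 and 19 of 94 for Trbv12-1. They gave 13 of 96 for Trbv13-2, 13 of 69 for Trbv29 and 23 of 80 for Trbv31. On this base the Trbv3 peak fell by more than 1.5 times as well.

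**Figure D4:**
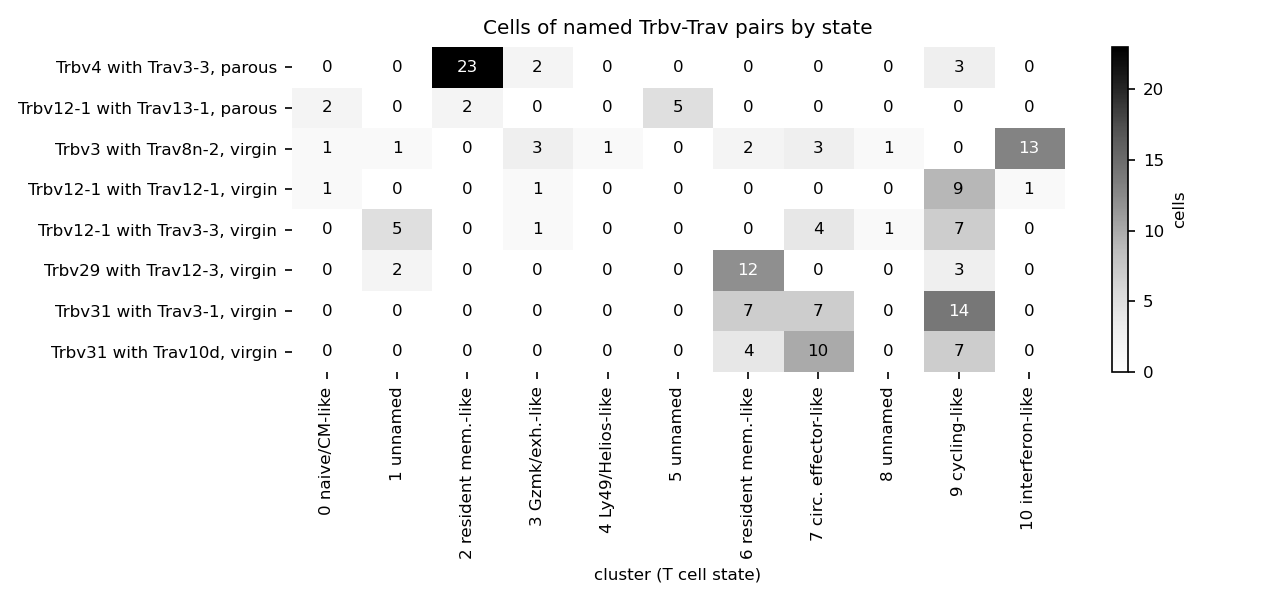
Number of cells (grey scale and figures in the boxes) with both the named Trbv and Trav gene assigned, by state, in the library named on each row. Trbv4 with Trav3-3 sits mostly in parous cluster 2 (23 of 28 cells), Trbv29 with Trav12-3 in virgin cluster 6 (12 of 17), Trbv3 with Trav8n-2 in virgin cluster 10 (13 of 25), and the Trbv31 pairs in virgin clusters 6, 7 and 9.

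The constant region gave a further reading that the rule did not use. Over all assigned cells Trbc1 made up 33.7% (32.2 to 35.2) of Trbc UMIs in the parous and 30.2% (29.1 to 31.3) in the virgin library. In virgin Trbv12-1 cells it was 2 of 76 UMIs with Trav12-1 (2.63%, 0.320 to 9.18) and 1 of 60 with Trav3-3 (1.67%, 0.0422 to 8.94), so both sets were almost wholly Trbc2. The Trbv31 pairs of the virgin library were also low in Trbc1, at 15.7% (10.0 to 23.0) with Trav3-1 and 8.65% (4.03 to 15.8) with Trav10d. All virgin Trbv31 cells together, the pairs included, had 92 Trbc1 and 564 Trbc2 UMIs. Of these 178 cells 90 held a Trav3-1 UMI, 91 a Trav10d UMI and 70 both. Trbv31 cells without these alpha segments were not counted apart, so whether low Trbc1 was particular to the pairs was not tested. Trbv3 with Trav8n-2 had 19.4% (10.4 to 31.4), Trbv29 with Trav12-3 33.3% (22.9 to 45.2) and parous Trbv4 with Trav3-3 22.7% (13.3 to 34.7), all 3 with intervals that held the value of their library. These intervals count each UMI as a separate draw, so they are too narrow for a statement about cells. Both constant genes are near copies of each other, so reads can be misplaced between them. J segments were assigned too rarely to use: a Trbj gene in 0.805% of parous and 4.56% of virgin assigned cells, and a Traj gene in 4 and 12 cells.

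Lastly, 18 genes of the receptor complex (CD3 chains, CD8, constant regions, proximal kinases and adaptors, and the inhibitory co-receptors Cd5 and Cd6) were compared between a member's cells and the other assigned cells of its leading state. Cells are not replicates, and all of these genes except Trac, Trbc1 and Trbc2 were open to use in the clustering, so counts past 1.5-fold are a description. Virgin Trbv31 cycling-like cells had 0 genes higher and 6 lower of 18 (median log2 ratio −0.26), where 8.36% of 7308 genes were higher and 10.3% lower. Cd5, a dampener of receptor signalling, had 12 UMIs in these cells, 12.4 CPM (6.42 to 21.7), against 325 UMIs, 219 CPM (196 to 244), in other cycling-like cells, a log2 ratio of −4.08. Cd6 (35.2 against 181 CPM), Trbc1, Trac, Cd247 and Cd3g were the others, at log2 ratios of −2.34, −1.50, −0.87, −0.67 and −0.61.

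Virgin Trbv29 cells of cluster 6 had 1 gene higher (Trbc1) and 3 lower, against 9.5% and 16.1% of 3169 genes: Cd6 was 38.2 CPM (12.4 to 89.2) against 160 CPM (126 to 201), Cd5 53.5 against 115 CPM, and Trac 138 against 227 CPM. Cd6 pointed the other way for Trbv3 in interferon-responding-like cells, at 276 CPM (190 to 388) against 150 CPM (113 to 195). Trbv3 cells had Zap70, the kinase recruited to the CD3 chains, at 117 against 214 CPM, and 1 higher and 1 lower gene in all, beside 13.3% and 14.4% of 2444 genes. Trbv4 cells of parous cluster 2 had 2 higher, Trac at 496 against 274 CPM and Trbc2 at 425 against 243 CPM, and 0 lower, beside 21.7% and 14.6% of 6116 genes. Trbv12-1 cells of parous cluster 5 had 1 higher (Cd6, 80.1 against 39.1 CPM) and 0 lower of 17 measured, beside 11.6% and 13.1% of 4657 genes. Trbv13-2 cells of virgin cluster 4 had Cd8a (387 against 236 CPM) and Cd6 higher and Trbc1 lower, beside 14.5% and 12.4% of 5845 genes. At 1400 UMIs per cell the genes past 1.5-fold numbered 0 for Trbv3, in place of 2, 0 for Trbv12-1, in place of 1, 1 for Trbv29, in place of 4, and 4 for Trbv31, in place of 6. A list gene needed at least 30 UMIs to be called, and thinning removes UMIs. How many genes still reached 30 is not given here, so these counts cannot tell a lost difference from lost UMIs. At full depth the members' counts lay near the shares over all genes except for the 6 lower genes of Trbv31, and Cd3e differed by under 1.5-fold in all 6 comparisons.

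Across the 21 library-state pairs, the level in CPM of Trbv4 had the highest correlations with other genes. Trbv4 was also the only member with a pair at 0 CPM, the parous interferon-responding-like cells. How far that point set its values was not tested. Of 11820 genes compared, the highest Pearson correlations of log2(CPM + 1) were 0.89, 0.88 and 0.86 for Trbv4 (Pdcd2, 5830405F06Rik and Det1), and 0.74, 0.73 and 0.70 for Trbv3 (Bend6, Gm13594 and Cd3d). They were 0.75, 0.75 and 0.73 for Trbv12-1 (Txndc15, Smyd5 and Bpnt1), 0.74, 0.71 and 0.67 for Trbv13-2 (Phf13, Celsr1 and Pqlc1), 0.77, 0.75 and 0.73 for Trbv29 (Mr1, Upf3b and Rhoh) and 0.73, 0.70 and 0.70 for Trbv31 (Kxd1, Chst2 and E2f1). The points share 2 libraries and differ in depth, and with that many genes compared such values describe these pairs only.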

How the data were processed

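The authors deposited raw UMI counts per gene and barcode for each library, and per the file headers these come from Cell Ranger 7.0.0. The mm10 build, R 4.4.2 and Seurat are named in the submitters' processing notes, without a role. How barcodes were called as cells is not given in the sources used here. Cells were kept with at least 500 genes, 1000 UMIs and under 10% mitochondrial UMIs, which left out 1908 parous and 15 virgin barcodes. No doublet caller was used and doublets were not removed.

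For clustering only, virgin UMIs were thinned to 58.7%, genes of receptors, immunoglobulins, ribosomes and mitochondria were dropped, and cells were grouped by the Leiden method at resolution 0.8 on 15 neighbours over 30 principal components of 2000 variable genes (scanpy 1.11.5, leidenalg 0.10.2). A cluster was named from at least 3 markers that were 2-fold above other cells. No name was given where none of the type's markers, or more of another type's, were among the 10 leading genes. Log2 ratios had 0.5 UMIs added. The leading state of a member is the library-state pair with at least 20 assigned cells and the highest ratio to the rest of that library. Named Trav genes are the most common in a leading state, and list genes those at least 1.5-fold apart. The further Trav genes and constant regions were read after these values were seen, and so were the finer clusters. The members, lists and states were chosen with earlier results of these data known. The assignment was tested on simulated cells of the virgin library: 2298 of 2451 were assigned, and shares came out within 0.226 percentage points. Each simulated cell had a single true Trbv gene, with stray UMIs of others at library frequencies. Cells with a second segment and reads misplaced between near copies were not simulated, so this error does not cover them. Python 3.11.15, numpy 2.4.6, scipy 1.17.1, pandas 2.3.3 and Biopython 1.88 were used.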

Additional observations from a re-analysis of the deposited data

How the results depend on the processing

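No paired analysis was possible because each group was 1 library, and no library could be left out. With UMIs in place of cells, Trbv4 came to 2.08% in parous and 2.35% in virgin cells and 4.55% in its leading state, Trbv12-1 to 3.74% in parous cells and 9.38% in its state, and Trbv29 to 7.61% in virgin cells. With 1 UMI enough, parous Trbv4 was 5.31%. At 90% of Trbv UMIs, Trbv13-2 was 7.22% in parous and 5.52% in virgin cells and Trbv31 9.64% in virgin cells. With 5 UMIs needed, Trbv4 was 1.07% in parous and 3.09% in virgin cells and 2.10% in its state, Trbv12-1 3.69% in parous cells and 10.1% in its state, and parous Trbv3 14.8%. Thinned to 1400 UMIs (49.8% of parous and 53.6% of virgin cells assigned), Trbv3 was 14.9% and 10.4%, Trbv4 2.52% and 3.52%, and Trbv12-1 4.84% and 4.27% in parous and virgin cells, Trbv31 5.85% in virgin cells, and the states 6.41% (Trbv4), 12.6% (Trbv12-1) and 26.7% (Trbv31). List genes past 1.5-fold then numbered 0 for Trbv3, 0 for Trbv12-1 and 1 for Trbv29, where thinning can also leave fewer genes with the 30 UMIs needed for a call.

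With cells of the same receptor genes counted once, among cells with an assigned Trav gene, Trbv3 was 9.28% in parous and 6.43% in virgin cells, Trbv4 3.45% in parous, Trbv29 6.10% in parous and 7.17% in virgin, and Trbv31 3.98% in parous and 4.96% in virgin cells. The leading states of Trbv4, Trbv29 and Trbv31 then had 4.49%, 4.88% and 10.0%, all under their shares of all assigned cells by more than 1.5 times. Among cells with an assigned Trav gene, the leading state of Trbv3 fell too, from 17 of 34 to 6 of 22 cells. The stricter cell filter put Trbv4 at 18.9% in its state. Without clusters 2 and 5, parous Trbv4 was 2.98% and Trbv12-1 4.59%. Resolution 0.5 gave Trbv3 10.9% in the cluster that held its state, and 1.2 gave 18.5% for Trbv4 and 11.3% for Trbv12-1. With 90% of Trav UMIs needed, the leading alpha share was 0% (0 of 9) for Trbv12-1, 0% (0 of 6) for Trbv13-2 and 100% (5 of 5) for Trbv29. The cause of these shifts was not tested. Without a cell filter (12 library shares only), without barcodes found in both libraries (18 shares, chosen after seeing the data), or with 1 Trav UMI enough (6 alpha shares), every value stayed within the exact interval of the one reported.

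The parous library was shallower and fewer of its cells were assigned a Trbv or a Trav gene. The part of depth in pair counts was not tested.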
